A study of Homo sapiens with 8 samples.

Results

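The 1000 widest H3K4me2 peaks of the lung adenocarcinoma line PC9, called domains here, were selected from the 85246 H3K4me2 peaks of that line by their width (end minus start, ties in genome order). They are described by the genes they cover, by the RNA of those genes in PC9R and PC9, and by the PC9R H3K4me2 peaks found inside them. PC9 carries an activating EGFR mutation, and PC9R is the line that was obtained from it by keeping PC9 under gefitinib, an inhibitor of the EGFR kinase, for 1 to 2 weeks. Both lines were sampled at passages 8 to 12, and the labels do not say whether PC9R is a pool or a clone. Each line has 1 list of H3K4me2 peaks from ChIP-seq, 1 list of DNase hypersensitive site (DHS) peaks and 2 RNA-seq libraries, which makes 8 samples in all. With 1 peak list per assay and line, no difference in peaks has a replicate check.

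H3K4me2, the dimethylated form of lysine 4 of histone H3, is found at active and poised promoters and enhancers. Enzymes of the KMT2 and SETD1 families write H3K4 methylation, and the demethylases KDM1A and the KDM5 family remove it. Nucleosomes that flank an active transcription start site (TSS) carry more of the mark than the nucleosome-free start itself, and the widest domains of H3K4 methylation are known to lie over genes that characterise a cell type. In lung adenocarcinoma such genes include epithelial keratins and transcription factors of the airway lineage.

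Domain bases that lay in a PC9R H3K4me2 peak are called kept and the other domain bases lost. The stretches below show what kept and lost sequence looked like in domains over 4 genes. NR2F1 and TPM2 are the domain genes called lower in PC9R by the main edgeR fit, which has no library term. EGFR encodes the target of gefitinib. KRT7, an epithelial keratin gene, is shown because its GC ran against the common direction. All 4 were chosen after their values were seen. Each stretch is 150 bases long, holds no annotated exon, lies nearest the middle of the widest kept or lost stretch that allowed this, and is given on the plus strand of GRCh37 with every CG dinucleotide in capitals. For NR2F1 no kept stretch was free of exons.
NR2F1 lost, chr5:92918778-92918927, the bases directly upstream of the TSS: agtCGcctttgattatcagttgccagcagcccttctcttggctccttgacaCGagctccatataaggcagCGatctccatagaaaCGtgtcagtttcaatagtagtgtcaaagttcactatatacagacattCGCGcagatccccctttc
TPM2 kept, chr9:35690828-35690977, upstream of the TSS: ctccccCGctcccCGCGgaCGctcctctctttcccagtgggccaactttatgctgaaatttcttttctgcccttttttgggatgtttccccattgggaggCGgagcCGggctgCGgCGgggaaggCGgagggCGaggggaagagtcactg
TPM2 lost, chr9:35688424-35688573, in an intron: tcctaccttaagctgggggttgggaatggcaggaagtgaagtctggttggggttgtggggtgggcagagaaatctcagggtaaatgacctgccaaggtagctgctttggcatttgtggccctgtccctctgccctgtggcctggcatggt
EGFR kept, chr7:55087743-55087892, in the first intron: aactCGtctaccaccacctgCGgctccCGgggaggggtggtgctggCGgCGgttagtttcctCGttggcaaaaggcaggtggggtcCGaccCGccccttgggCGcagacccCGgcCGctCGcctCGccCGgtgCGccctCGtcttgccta
EGFR lost, chr7:55090392-55090541, in the first intron: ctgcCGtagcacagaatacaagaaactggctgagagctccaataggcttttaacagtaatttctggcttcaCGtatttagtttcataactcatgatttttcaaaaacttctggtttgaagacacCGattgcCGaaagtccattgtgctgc
KRT7 kept, chr12:52628789-52628938, in an intron: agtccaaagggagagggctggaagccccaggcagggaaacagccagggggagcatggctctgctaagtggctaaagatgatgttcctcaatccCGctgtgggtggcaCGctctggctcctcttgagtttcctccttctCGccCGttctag
KRT7 lost, chr12:52627405-52627554, in an intron: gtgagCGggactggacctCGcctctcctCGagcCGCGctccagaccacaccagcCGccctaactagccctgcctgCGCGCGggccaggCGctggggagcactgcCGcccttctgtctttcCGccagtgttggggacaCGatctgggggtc

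The kept EGFR stretch held 16 CG dinucleotides at 70.7% GC, against 4 CG at 40.7% GC in the lost EGFR stretch. The kept TPM2 stretch held 10 CG at 62% GC, and the lost TPM2 stretch held 0 CG at 56.7% GC. KRT7 ran the other way, with 4 CG at 58.7% GC in the kept stretch and 13 CG at 70% GC in the lost stretch. The lost NR2F1 stretch held 6 CG at 46.7% GC. Over whole domains the kept bases had 60.3% GC and the lost bases 53.4% GC at EGFR, 64.6% and 60.7% at TPM2, 62.5% and 56.2% at NR2F1, but 56.6% and 58.8% at KRT7. In CG per kb, kept and lost bases of whole domains were close at EGFR (55.6 and 53.7) and NR2F1 (61.2 and 60.3). The values were 62 and 35 at TPM2 and 16.6 and 31.4 at KRT7. The EGFR stretches thus differed far more in CG than the whole domain did.

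The domains were 3669 to 11286 bp wide, with a median of 4345 bp. The narrowest 4 domains were 3669 bp wide and the next 2 peaks, just outside, 3668 bp. Together the domains spanned 4.68 Mb, which is 6.56% of the 71.4 Mb in all PC9 H3K4me2 peaks. The deposited peak score is the authors' own, on a scale that no source used here states, and the median domain stood at the 92.3 percentile of scores within the PC9 list. The lists of the lines differed in peak width throughout, and this bears on every count of pieces below. The PC9R list held 117861 peaks with a median width of 395 bp and a widest peak of 3359 bp, against 85246 peaks with a median of 546 bp in PC9. No PC9R peak was therefore wide enough to span a domain, and 1403 PC9 peaks were wider than any PC9R peak. The sources used here do not say whether the lists were called with the same settings and depth.

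In PC9R most domains were present as several narrower peaks rather than missing. Of the 1000 domains, 891 were overlapped by 2 or more PC9R peaks (89.1%, exact 95% binomial interval 87.0% to 91.0%, counting error only) and 4 by none (0.4%, 0.109% to 1.02%). The count was 1 in 105 domains, 2 in 303, 3 in 329, 4 in 175, 5 in 57, 6 in 24 and 7 in 3. The median domain held 3 PC9R peaks, and these covered a median of 41.3% of its length (lower quartile 31.4%, upper quartile 51.0%). The kept share was under 25% in 140 domains, 25% to 50% in 582, 50% to 75% in 273 and 75% or more in 5, with a maximum of 83.8%. Over all PC9 peaks, of median width 546 bp, 12.98% held 2 or more PC9R peaks and 29.8% none, with a median kept share of 56.9%. The share with none was 1.1% in the 1000 peaks next in width and 1.96% in the 8000 after those. Being present in PC9R was thus common to wide PC9 peaks.

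**Figure D1:**
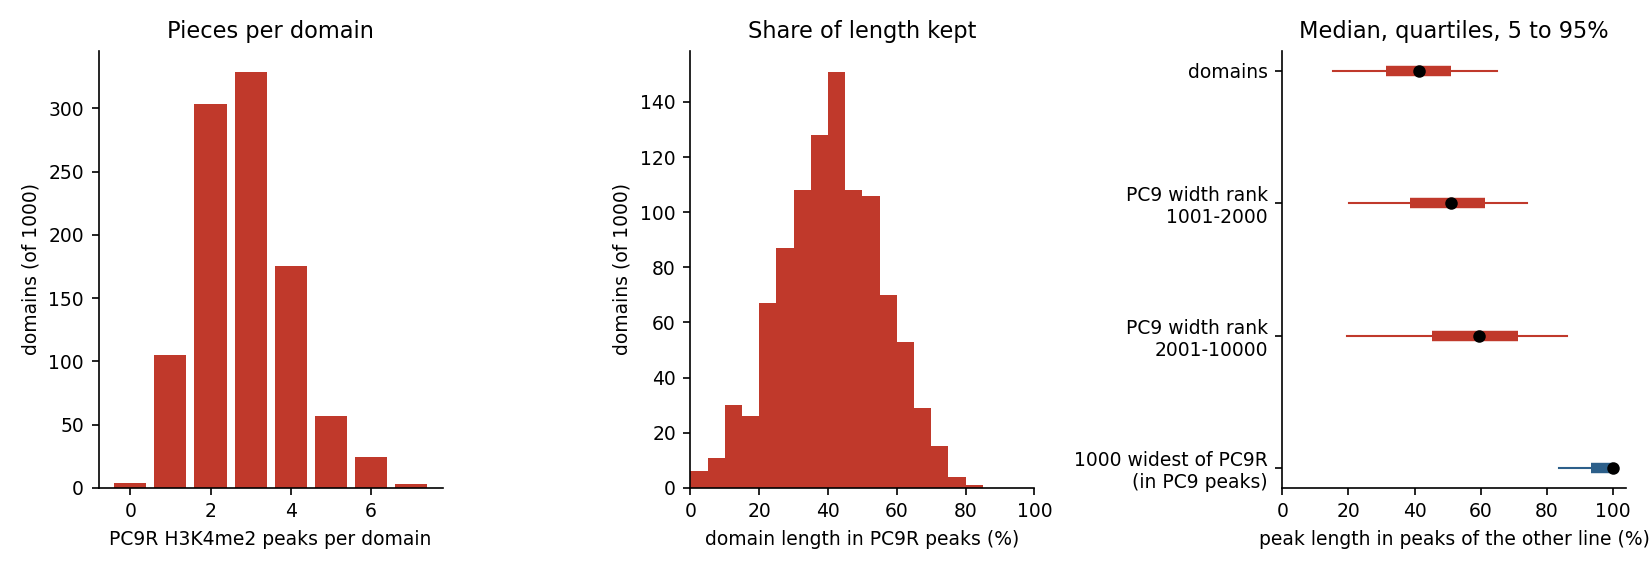
Left, number of domains (of 1000) by the count of PC9R H3K4me2 peaks overlapping each. Middle, number of domains by the percent of their length in PC9R peaks, in steps of 5 points. Right, percent of peak length inside peaks of the other line (dot, median; thick line, quartiles; thin line, 5th to 95th percentile) for the domains, for the 1000 and then 8000 PC9 peaks that follow them in width, and for the 1000 widest PC9R peaks set against PC9 peaks. Most domains hold 2 to 4 pieces, and their median kept share of 41.3% lies below the medians of the narrower PC9 peaks (51.1% and 59.5%) and far below the 100% of the widest PC9R peaks.

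The 2848 PC9R peaks inside domains were short, with a median width of 520 bp, and stood at a median 70.7 percentile of score within the PC9R list. The 1852 gaps between neighbouring pieces of a domain had a median of 323.5 bp, and 11.1% of them exceeded 1000 bp. When PC9R peaks no more than 1000 bp apart were joined first, 18.9% of the domains held 2 or more PC9R peaks and the median kept share was 55.7%. When both lists were joined in this way and the 1000 widest joined PC9 peaks were taken, the shares were 66.7% and 35.0%. The count of pieces thus depended on whether near peaks were joined.

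The breakage was graded with width. Among the 1000 PC9 peaks that follow the domains in width, 78.5% held 2 or more PC9R peaks and the median kept share was 51.1%. Among the 8000 after those, with a median width of 2114 bp, the values were 52.9% and 59.5%. Within the domains, the widest 250 kept a median of 33.5%, and the next 3 sets of 250 kept 41.6%, 45.2% and 44.97%. Across the 1000 domains, kept share and width had a Pearson correlation of -0.34 and a Spearman correlation of -0.32. This is a description over domains of the same 2 peak lists. Width chose the domains and is the divisor in the kept share, and no PC9R peak was wider than 3359 bp. The fall of kept share and the rise of piece count with width are therefore partly built in. The 1000 widest PC9R peaks had a median width of 1935 bp, less than that of the domains and near that of the 8000 PC9 peaks. Of these PC9R peaks, 33.4% overlapped 2 or more PC9 peaks, 0.4% overlapped none, and the median share of their length inside PC9 peaks was 100%.

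The widest domain of all lay over ZMYND8, which encodes a reader of modified histones, at chr20:45979277-45990562. PC9R peaks broke its 11286 bp into 6 pieces and covered 20.9%. The next widest domains over a TSS belonged to PCDH7 (9648 bp, 5 pieces, 32.1% kept), a protocadherin gene, to the transcription factor gene GATA2 (9304 bp, 5 pieces, 29.2% kept), and to the neighbouring calcium-binding protein genes S100A14 and S100A16 (9249 bp, 6 pieces, 37.4% kept). Further members of the 20 widest were at SDC4, a cell-surface proteoglycan gene (30.9% kept), at TFAP2A, BCL6, BCOR, TGIF1 and BHLHE41, which encode transcriptional regulators (10.4% to 32.0% kept), at the laminin gene LAMA5 (42.9% kept), at the metabolic enzyme genes ALDH3A2 and AKR1B1 (16.4% and 10.9% kept), at AMOTL2 (21.5% kept) and at ADM (37.4% kept). The 20 widest also held 5 domains without a coding TSS. The least kept of these lay in the gene of the airway lineage factor FOXA1, at chr14:38055070-38064287, of which 3 PC9R peaks covered 9.81%. The others lay in BCL9L and UPK2 (chr11:118786615-118796281, 6 pieces, 22.8% kept), in SBNO2 (chr19:1165046-1174224, 4 pieces, 33.8% kept), over microRNA genes described below, and outside annotated coding genes at chr11:76474911-76483521 (3 pieces, 32.2% kept).

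The 3 domains with 7 pieces lay over ADM, the adrenomedullin gene, over HES7, a Notch-regulated repressor gene, and in the gene of the repressor ZBTB7A, with 37.4%, 37.1% and 39.5% kept. Domains with 6 pieces included that of PTCH1, the Hedgehog receptor gene (25.1% kept). These 4 domains were 6809 to 8171 bp wide.

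Among the 747 domains with a coding TSS, the least kept was that of CHD2, a chromatin remodeller gene, at chr15:93447694-93452441, in which no PC9R peak lay. DUSP6, an ERK phosphatase gene, kept 5.69%, the homeobox gene MEIS2 5.72%, the integrin subunit gene ITGB1 7.04%, the glycolytic enzyme gene ENO1 9.499%, PBLD 9.68%, the heterochromatin protein gene CBX3 10.1% and BCOR 10.4%. At the other end, the homeobox gene HOXB6 kept 77.7%, at chr17:46679491-46683241. LSR, a cell junction gene, kept 76.0%, the mitochondrial carrier gene SLC25A22 75.04%, CDC42BPG 74.6%, the domain of PPT2 and PRRT1 74.2%, the anti-apoptotic gene BCL2L1 74.0%, the domain of NCBP1 and TSTD2 72.1% and the domain of CDC42SE1 and MLLT11 71.7%. The 8 most kept domains were at most 4274 bp wide, while the 8 least kept included that of BCOR at 8859 bp.

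**Figure D2:**
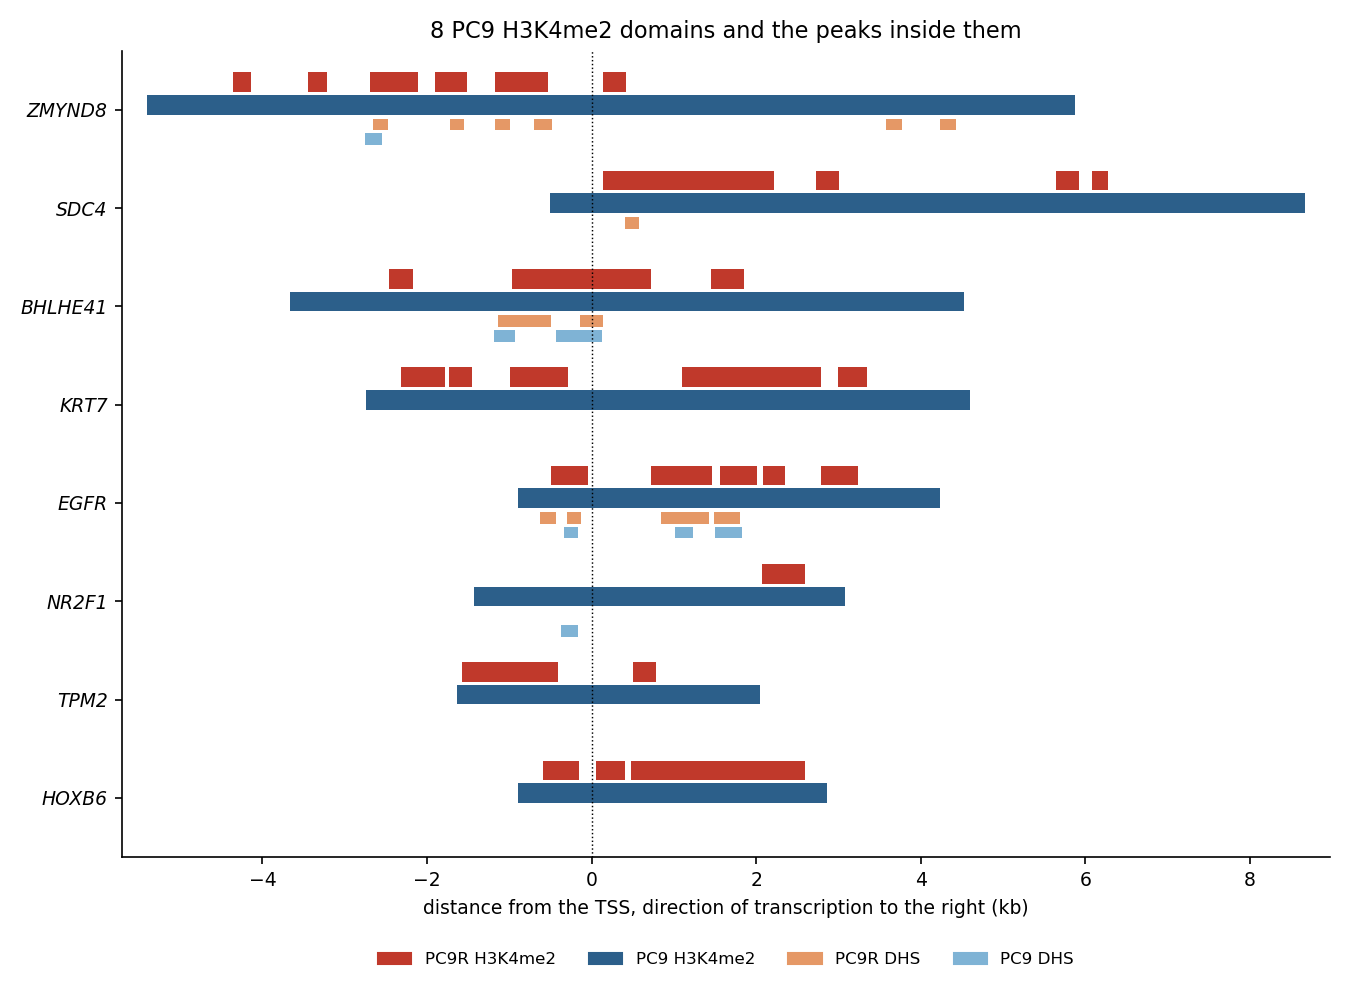
Maps of 8 domains, each drawn from a TSS of the named gene (dotted line), with the distance in kb on the x axis and transcription to the right. Red bars are PC9R H3K4me2 peaks, dark blue bars the PC9 domain, orange bars PC9R DHS peaks and light blue bars PC9 DHS peaks. ZMYND8, 11286 bp wide, holds 6 PC9R peaks over 20.9% of its length, NR2F1 holds 1 over 11.6%, and HOXB6 holds 3 over 77.7%.

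MicroRNA genes lay in 20 domains, 22 genes in all, and their mature sequences mark what some poorly and well kept domains cover. The domain of MIR193B and MIR365A, at chr16:14396206-14405404, kept 17.8%, and that of MIR193A, at chr17:29885404-29889284, kept 23.2%. The domain of MIR200C and MIR141, microRNAs known for repressing ZEB factors in epithelial cells, lay at chr12:7069943-7074511 and kept 70.4%. These 3 domains were chosen after their values were seen. The mature sequences are from RefSeq (GRCh38.p14), with the seed, bases 2 to 8, in capitals.
hsa-miR-193a-3p: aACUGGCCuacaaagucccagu
hsa-miR-193b-3p: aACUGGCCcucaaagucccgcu
hsa-miR-365a-3p: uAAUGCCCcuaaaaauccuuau
hsa-miR-200c-3p: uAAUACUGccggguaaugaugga
hsa-miR-141-3p: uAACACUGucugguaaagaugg
The first 2, encoded on chromosomes 17 and 16, share the seed, while those of miR-200c-3p and miR-141-3p differ from each other. The RNA libraries were not used to measure mature microRNAs. Long noncoding RNA genes also lay in domains without a coding TSS, among them MALAT1 (12.4% kept), NEAT1 (24.2% kept) and MIR205HG (41.5% kept), named here after their values were seen.

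The kept share was higher towards the middle of domains, and around the TSS it was higher on both sides than at the start itself. In the outermost of 10 equal steps from edge to middle, 7.83% of bases were kept, against 52.8% in the innermost step. The narrower PC9 peaks had the same shape, with 10.8% and 66.1% for the 1000 that follow in width and 17.2% and 72.7% for the 8000 after them. The profile around the TSS used 1 coding TSS in each of 747 domains, the one nearest the domain centre. Of the domain bases from 200 bp upstream to 200 bp downstream of it, 46.3% were in a PC9R H3K4me2 peak. The share was 59.1% from 500 to 200 bp upstream, 60.6% from 200 to 500 bp downstream and 66.0% from 500 to 1000 bp downstream. It was 34.7% from 2000 to 1000 bp upstream and 20.6% from 2000 to 3000 bp downstream. Of the annotated coding TSS in domains, 949 (43.9%) were in kept and 1215 in lost bases. The share at the TSS was thus a local dip and not below the 39.8% of all domain bases. Because the TSS of the profile were picked towards domain centres, where more was kept, distance from the TSS is mixed with position in the domain.

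**Figure D3:**
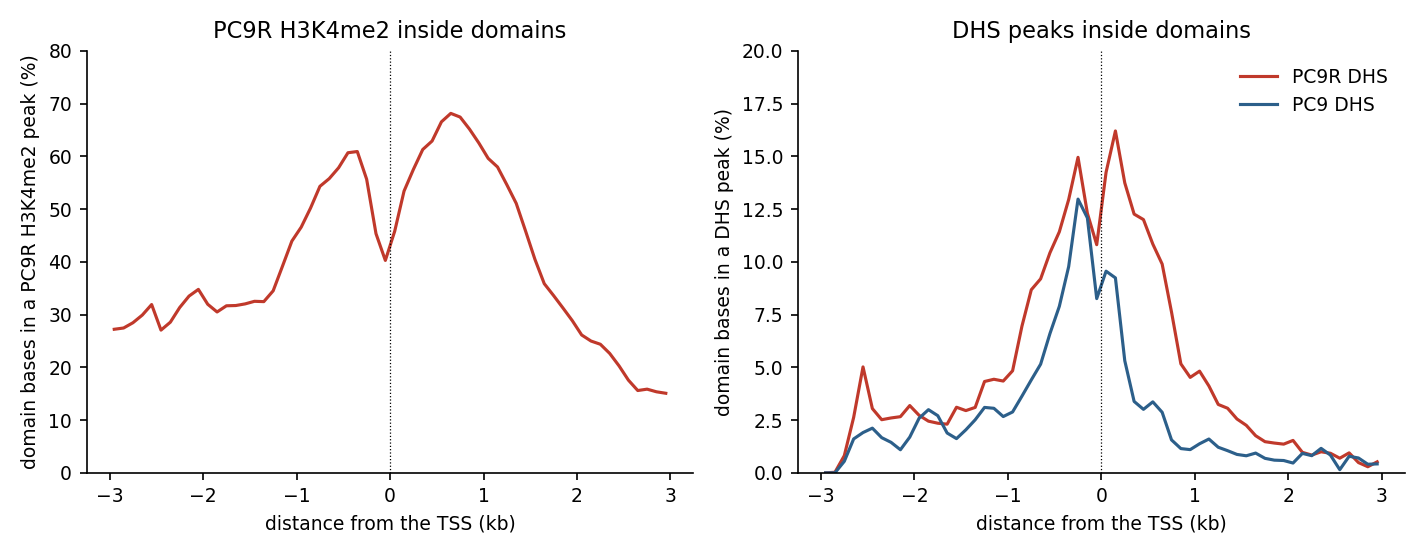
Left, percent of domain bases in a PC9R H3K4me2 peak by distance from a coding TSS (kb, steps of 100 bp, downstream positive). Right, the same for DHS peaks of PC9R (red) and PC9 (blue). PC9R H3K4me2 dips at the TSS between shoulders on both sides, and the DHS peaks of both lines are densest within 500 bp of the TSS.

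DHS peaks of both lines fell mostly in kept bases. Of the PC9R DHS midpoints in domains, 635 (86.2%) were in kept and 102 in lost bases, and of the PC9 DHS midpoints 326 (73.3%) were in kept and 119 in lost bases. Kept bases made up 39.8% of domain length. A PC9R DHS peak was present in 46.8% of domains and a PC9 DHS peak in 36.1%. The shares were 49.1% and 38.8% in the 1000 peaks next in width, and 14.25% and 12.18% over all PC9 H3K4me2 peaks, which are narrower. Per Mb the domains held 160 PC9R and 102 PC9 DHS peaks, against 197 and 158 in all PC9 H3K4me2 peaks. A DHS peak was counted at 1 bp of overlap, which raises the value per Mb more for narrow peaks. These densities therefore do not show whether the domains were less dense in DHS than the mark as a whole.

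Base composition moved with the kept share. Kept bases had 58.0% GC and 43.8 CG dinucleotides per kb, and lost bases 51.6% GC and 35.7 CG per kb. Relative to base composition the CG dinucleotides were about as frequent in kept as in lost bases, with observed over expected ratios of 0.521 and 0.536. Among 989 domains with at least 300 bases of each kind, kept bases had the higher GC in 775 (78.4%), by a median over all 989 of 4.84 percentage points. Narrower peaks showed the same, with the higher GC in kept bases in 74.5% of the 1000 peaks next in width that met this minimum and in 71.5% of the 8000 after them. The CG count per kb was higher in kept bases in 620 of the 989 domains, fewer than for GC. In 4 sets of 250 domains by GC, the median kept share was 33.8%, 41.0%, 43.6% and 45.8% from the lowest to the highest. The 4 domains with no PC9R peak had 35.7%, 35.8%, 38.5% and 49.6% GC, against 54.2% over all domains. Whether base composition affected the recovery of fragments in either ChIP library was not tested. The letters TGANTCA, the recognition sequence of AP-1 read the same on both strands, were found in 4.49% of 200-bp tiles of kept bases, 5.99% of lost tiles and 7.21% of tiles of all PC9 peaks, which is a description and not a count of binding sites.

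The domains were promoter-rich. A coding TSS lay in 747 domains (74.7%), another 189 lay within a coding gene, and 64 lay outside coding genes. The share with a TSS was 73.2% in the 1000 peaks next in width, 53.4% in the 8000 after them and 13.04% over all PC9 peaks. Domains with a TSS kept a median of 42.6%, those within genes 34.1% and those outside genes 41.2%. Domains were found on every chromosome but Y, with most on chromosomes 1 (135 domains), 17 (72) and 6 (65), and the median kept share by chromosome ran from 23.96% on chromosome 21 (6 domains) to 50.4% on chromosome 19 (46 domains).

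The domains covered the TSS of 834 coding genes, 16 of them without a symbol. Of all coding genes with a symbol, 4.18% had their TSS in a domain, and 92 domains held 2 or more. Of these genes, 806 were in the count table, 374 of them with a single RefSeq accession. The 8198 genes with several accessions held 6.74% to 7.07% of all counts, and how reads shared by accessions were counted is not stated, so low counts of ZMYND8 (18 accessions), BCOR (4), MEIS2 (9) or TGFB2 (2) are not read as low expression. Levels are therefore compared on the 374 genes with 1 accession, as CPM (counts scaled to library size) per kb of the longest transcript.

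Domain genes had the highest RNA levels of any class of gene by H3K4me2 peak width, in both lines. Their median was 31.7 CPM per kb in PC9R and 33.0 CPM per kb in PC9. Genes whose widest TSS peak was among the 1000 next in width had medians of 18.4 in PC9R and 18.9 in PC9, those of the 8000 after them 13.9 and 14.3, those with a narrower peak 5.14 and 4.24, and those with none 0.0317 and 0.0168. On the log2(CPM per kb + 1) scale the domain genes' median was 5.03 and 4.80 in the PC9R libraries and 5.01 and 5.08 in the PC9 libraries, so the lines overlapped, and all 4 values lay above the 4.07 to 4.30 of the next class. Few domain genes were nearly silent, with 20 of 374 under 1 CPM per kb in PC9R and 21 in PC9. As width chose the domains, these levels are descriptions.

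**Figure D4:**
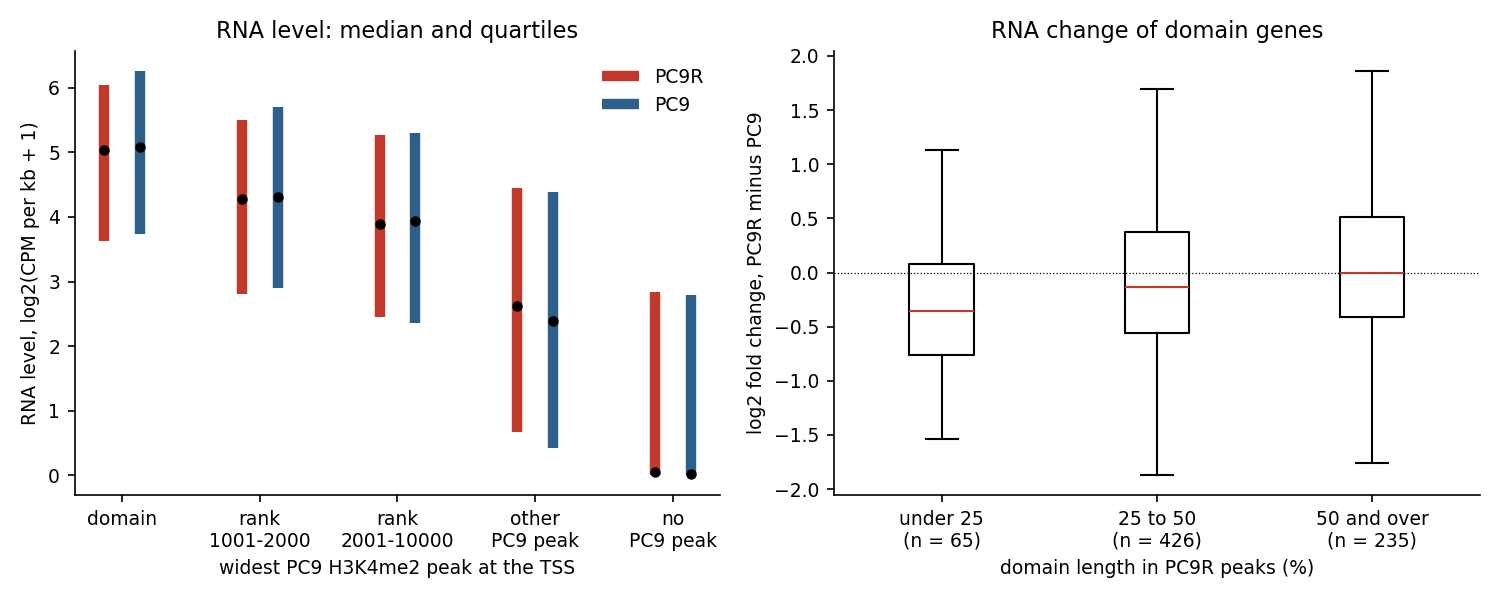
Left, RNA level as log2(CPM per kb + 1) in PC9R (red) and PC9 (blue) by the widest PC9 H3K4me2 peak at the TSS (dot, median; bar, quartiles; genes with 1 accession). Right, log2 fold change (PC9R minus PC9) of the 726 tested domain genes by the percent of the domain in PC9R peaks (line, median; box, quartiles; whiskers, 1.5 box lengths; points beyond not drawn). Levels fall from 5.03 and 5.09 for domain genes to near 0 for genes without a peak, and the median fold change is -0.36, -0.13 and -0.004 in the 3 bins.

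RNA was compared between PC9R and PC9 with edgeR's quasi-likelihood test over 12314 genes, with 32502455 and 16715426 counts in the PC9R libraries and 32515891 and 16013058 in the PC9 libraries. In bulk RNA, fewer cells of a type and less RNA per cell cannot be told apart. Nothing given states that the 2 libraries of a line are independent cultures, so the p-values may reflect technical spread alone. Of the 726 domain genes tested, 2 were called at a Benjamini-Hochberg adjusted p under 0.05, both lower in PC9R, where 0.0731% of all genes were called lower, 0.244% higher and 0.317% either way. DESeq2 called 10 domain genes, all lower (1.38%, against 0.95% of all genes called lower), and limma-voom 2, both lower (0.275%, against 0.154%). An unadjusted edgeR p under 0.05 was found for 37 domain genes (5.1%), a smaller share than the 7.26% of all genes. The 4 libraries split by line without overlap for 17% of all genes tested in the higher and 14.7% in the lower direction, which is the background for the gene-by-gene statements of overlap below. In both lines the second library had about the same lower depth, and the differences between the second and the first library correlated at 0.83 between the lines over genes. Values are therefore also given within libraries of the same number and with library number as a term in the model, which leaves 1 residual degree of freedom. With that term 109 domain genes were called lower and 67 higher, which is 15.01% and 9.23% of those tested. Of all genes, 10.2% were called lower and 12% higher. Genes of the class next in PC9 peak width had a similar skew, with 13.4% lower and 8.57% higher. The class after that had 10.09% lower and 10.23% higher. The skew was thus not particular to the domain genes.

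NR2F1 and TPM2 were the called genes. NR2F1, an orphan nuclear receptor gene known for regulating differentiation and tumour cell dormancy, had 0.892 and 1.5 CPM in the PC9R libraries and 66.4 and 38.0 CPM in the PC9 libraries. Both PC9R values were far below both PC9 values, and the log2 fold change was -5.46 (SE 0.75, edgeR adjusted p = 0.0383). Of its domain, chr5:92917495-92922011, a single PC9R peak covered 11.6%, and the sequence directly upstream of the TSS shown above was lost. An antisense gene overlaps NR2F1 and the strand of the libraries is not given, so reads of the pair cannot be told apart. TPM2, a tropomyosin gene of the actin cytoskeleton, had 1.78 and 1.62 CPM in PC9R and 65.5 and 45.3 CPM in PC9. The lines again did not overlap, with a log2 fold change of -5.02 (SE 0.68, edgeR adjusted p = 0.0383). Its domain, chr9:35687869-35691548, kept 39.4% in 2 pieces, close to the median domain, and TPM2 has 2 accessions. Over the alternative fits the adjusted p ran from 4.58e-13 to 0.0674 for NR2F1, called in 11 of 12, and from 1.05e-12 to 0.0665 for TPM2, called in 10 of 11.

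The 6 other domain genes with the largest lower values among those called with the library term were HMGA2, DNAJC22, CTSC, PTGER4, DKK1 and BST2. Genes in this and the next group were required to have lines that do not overlap. None of the 6 passed in the main edgeR fit, which lacks the term (adjusted p of 0.147 to 0.383). With the term, by which they were chosen, edgeR gave an adjusted p of 4.84e-05 to 0.000279. Also without the term, edgeR on unfiltered genes called HMGA2, CTSC, PTGER4, DKK1 and BST2, and DESeq2 called the first 4. DNAJC22 too was called in some of the alternatives that lack the term. RLE and upper quartile scaling, the stricter filter and limma-voom called none of these genes. HMGA2, an architectural chromatin protein gene, had 5.21 and 90.3 CPM in PC9R and 251 and 1186 CPM in PC9, with 2 accessions. DKK1, a secreted Wnt antagonist gene, had 48.0 and 158 CPM in PC9R and 382 and 672 CPM in PC9. CTSC, the cathepsin C gene, had 119 and 257 CPM in PC9R and 792 and 1445 CPM in PC9, with 3 accessions. In each of these the PC9R libraries lay below the PC9 libraries, and the spread between libraries of a line was large, widest for HMGA2. PTGER4, a prostaglandin E2 receptor gene, had 18.6 and 36.1 CPM in PC9R and 93.0 and 198 CPM in PC9, in a domain that kept 17.0%. BST2, an interferon-induced membrane protein gene, had 67.0 and 20.4 CPM in PC9R and 265 and 144 CPM in PC9. DNAJC22 had 2.76 and 0.900 CPM in PC9R and 28.5 and 15.1 CPM in PC9, in a domain that kept 61.3%.

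The 8 largest higher values among domain genes called with the library term were those of CYP1B1, ABHD4, EID3, NECTIN4, ABTB3, EFNA1, TMEM164 and TXNIP. Their passing with the term was thus fixed by the choice. None passed without the term (edgeR adjusted p of 0.331 to 0.765) and all 8 passed with it (0.000318 to 0.0085), with a range over all alternatives of 0.000318 to 1. CYP1B1, a cytochrome P450 gene that metabolises aromatic compounds and steroids, had 34790 and 33052 counts in the PC9R libraries and 10661 and 7917 counts in the PC9 libraries, which is 1492 ± 694 CPM in PC9R and 434 ± 141 CPM in PC9 (SD, n = 2 each). The PC9R libraries lay above the PC9 libraries. Its TSS domain kept 23.1%, and the neighbouring domain within the gene, chr2:38294888-38299518, held no PC9R peak, so the higher RNA stood beside a poorly kept domain. TXNIP, the thioredoxin inhibitor gene, had 627 and 369 CPM in PC9R and 167 and 219 CPM in PC9. NECTIN4, a cell adhesion gene, had 117 and 45.4 CPM in PC9R and 30.1 and 24.9 CPM in PC9. The domains of the 8 higher genes kept 14.4% to 69.5% and those of the 8 lower genes, NR2F1 and TPM2 included, 11.6% to 61.3%, so the ranges overlapped.

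**Figure D5:**
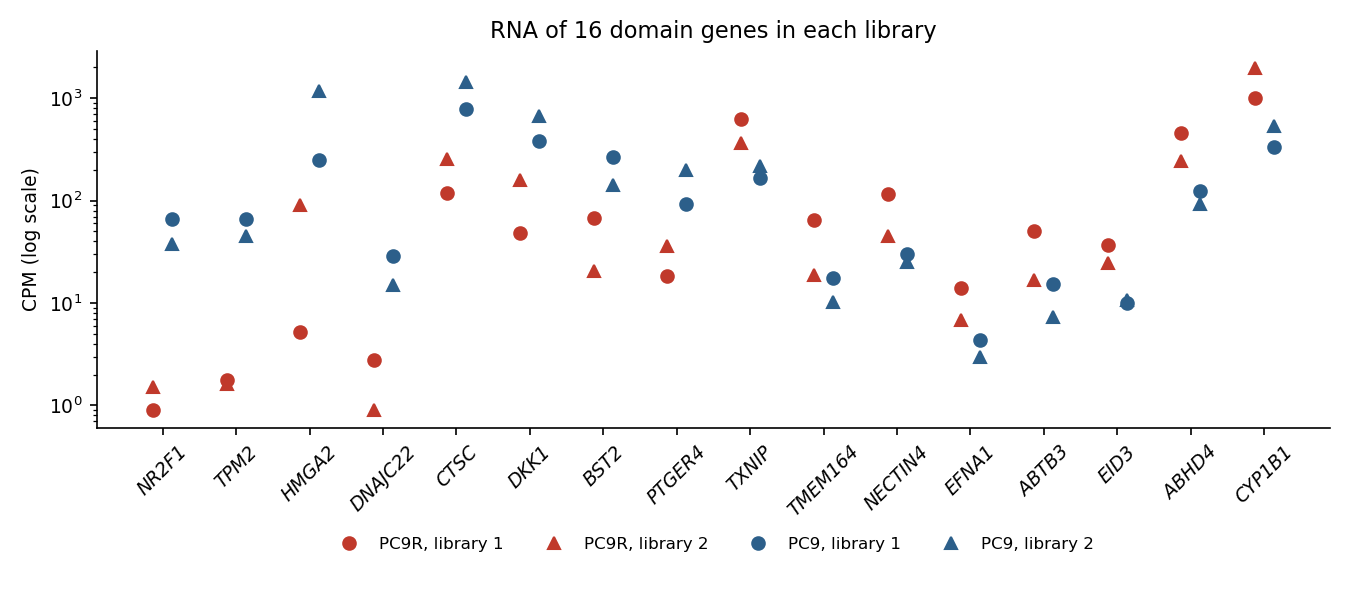
CPM (log scale) of 16 domain genes in each RNA library, PC9R in red left of PC9 in blue, circles for the first and triangles for the second library of a line. The genes are the 8 lower and 8 higher with the largest fold changes among those called with library number as a term, from lowest to highest. Lines that do not overlap were a condition for choosing a gene. NR2F1 and TPM2 lie near 1 CPM in PC9R and between 38.0 and 66.4 CPM in PC9.

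The median log2 fold change of the 726 was -0.11, against -0.005 over all genes tested. Among 677 tested genes of the class next in PC9 peak width it was -0.079. Within libraries of the same number the median of the 726 was -0.07 and -0.10. It changed with the library left out, running from -0.34 to 0.12, with the value of 0.12 when the first PC9 library was left out and the median of all genes was 0.11. With all 4 libraries the median fold change was lower where less of the domain was kept. It was -0.36 for 65 genes in domains kept under 25%, -0.13 for 426 genes at 25% to 50% and -0.004 for 235 genes at 50% or more. With the library term, 16 of the 65 genes were called lower and 4 higher (24.6% and 6.15%), against 29 lower and 28 higher of the 235 (12.3% and 11.9%). That fit called 10.2% of all genes lower and 12% higher, near the shares of the 235. This gradient depended on the library left out. Without the second PC9 library the medians were -0.15, -0.22 and -0.0857, so the least kept bin lay above the middle bin. The median of the least kept bin minus that of the most kept bin was -0.35 with all 4 libraries, -0.0659 without the second PC9 library, -0.12 without the first PC9R library, -0.67 without the first PC9 library and -0.60 without the second PC9R library. Across the 726 genes kept share and fold change had a Pearson and a Spearman correlation of 0.14, as a description over genes of the same 4 libraries. The median GC of the domains was 48.2%, 54.2% and 57.1% in the 3 bins, and the part of GC in this gradient was not tested. Among genes with 1 accession the medians of the lowest and highest bins were -0.20 and -0.11.

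Of the EGFR family and its ligands, 3 of 12 genes had a TSS in a domain: EGFR, ERBB3, a partner receptor, and the ligand gene TGFA. Members of the lists below are counted as in domains in the same way, by a TSS. EGFR had 536 and 1031 CPM in PC9R and 1870 and 2071 CPM in PC9. The PC9R libraries lay below the PC9 libraries, and the log2 fold change of -1.33 (SE 0.51) was not called (edgeR adjusted p = 0.538), though it passed with the library term (-1.40, SE 0.22, adjusted p = 0.00244, range over the alternatives 0.00244 to 1). EGFR has 4 accessions, so these values compare only the reads counted. Its domain, chr7:55085833-55090963, was broken into 5 PC9R peaks that kept 46.3%, and held 4 PC9R and 3 PC9 DHS peaks. ERBB3 had a log2 fold change of 0.16 in a domain that kept 68.3%.

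MAPK feedback genes, which ERK signalling induces, had 5 of 13 members in domains, namely DUSP4, DUSP6, SPRY1, SPRY2 and ETV4. DUSP6 and SPRY2 were called lower with the library term only, in a fit that called 10.2% of all genes lower. DUSP4 had a log2 fold change of 0.15 and was not called in either fit. SPRY2, an inhibitor of receptor tyrosine kinase signalling, had 21.2 and 16.1 CPM in PC9R and 36.6 and 44.4 CPM in PC9. DUSP6 had 21.7 and 13.6 CPM in PC9R and 31.3 and 32.4 CPM in PC9, in a domain that kept 5.69%. For both, the PC9R libraries lay below the PC9 libraries. YAP and TEAD genes had 5 of 12 members in domains (WWTR1, TEAD1, TEAD4, AMOTL2 and AJUBA), with edgeR adjusted p of at least 0.179 in both fits. TEAD1, a transcription factor through which YAP acts, had 344 and 547 CPM in PC9R and 266 and 429 CPM in PC9, which overlapped, in a domain that kept 12.2%.

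Of the lineage factors, 4 of 16 had a TSS in a domain (GATA6, EHF, CEBPA and ID1). FOXA1 is among the 16 but not the 4, as the domain in its gene held no coding TSS. GATA6, CEBPA and ID1 were called higher with the library term only, in a fit that called 12% of all genes higher. EHF was not tested. ID1, an inhibitor gene of helix-loop-helix factors, had 15.3 and 2.04 CPM in PC9R and 4.71 and 0.876 CPM in PC9, which overlapped. Its log2 fold change of 1.62 turned to -0.49 without the first PC9R library and was 3.30 without the first PC9 library. GATA6, an endodermal transcription factor gene, had 28.8 and 30.1 CPM in PC9R and 14.5 and 11.7 CPM in PC9, without overlap, in a domain that kept 53.9%. CEBPA, a differentiation factor gene, had 110 and 49.7 CPM in PC9R and 55.1 and 23.4 CPM in PC9, which overlapped, and its log2 fold change of 1.02 was 0.33 without the first PC9R library and 1.77 without the first PC9 library. The TGF-beta pathway had 5 of 14 members in domains (TGFB1, TGFB2, SMAD3, SMAD6 and SMAD7), of which the ligand gene TGFB1 was called lower with the library term only, at 180 and 43.8 CPM in PC9R and 353 and 121 CPM in PC9, which overlapped. Its log2 fold change of -1.08 was -0.12 without the first PC9 library and -2.45 without the first PC9R library. HOX genes had 3 of 39 members in domains, which kept 42.1% (HOXC11), 70% (HOXB7) and 77.7% (HOXB6). With the library term HOXB6 was called higher and HOXC11 lower.

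Nuclear receptors had 4 of 15 members in domains, of which NR2F1 was called lower, while RARA, RARG and NR2F2 had edgeR adjusted p of at least 0.122 in both fits. NR2F2, the closest relative of NR2F1, had 67.1 and 40.2 CPM in PC9R and 72.4 and 41.4 CPM in PC9, nearly the same in libraries of the same number, although its domain kept 24.95%. Among the H3K4 writers and erasers, SETD1B and KDM5B of 14 had a TSS in a domain. KDM5B, an H3K4 demethylase gene, had 393 and 246 CPM in PC9R and 229 and 275 CPM in PC9, which overlapped, and its domain kept 11.4%. Tumour suppressors had 3 of 20 members in domains (CDKN1B, CDKN2A and ARID1A), AP-1 and MAF genes 2 of 12 (FOS and BATF), the Notch pathway 1 of 10 (JAG1) and G2/M genes 1 of 15 (KIF11). These genes had edgeR adjusted p of at least 0.0817 in both fits.

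Both lines, labelled as lung cancer cells, had RNA of epithelial and mesenchymal markers, and lower summed levels of leukocyte, endothelial and fibroblast markers. Epithelial genes had 4 of 14 members in domains (KRT7, KRT8, DSP and ESRP1), and mesenchymal, leukocyte, endothelial and fibroblast markers had 0 of 11, 8, 7 and 8. KRT7, a keratin gene of simple epithelia, had 9208 and 5420 CPM in PC9R and 12200 and 5339 CPM in PC9, which overlapped, in a domain broken into 5 pieces that kept 48.4%. DSP, the desmoplakin gene of cell junctions, had 179 and 160 CPM in PC9R and 266 and 280 CPM in PC9, without overlap, and was called lower with the library term only. Summed over the lists, epithelial markers had 11800 to 20580 CPM in PC9R and 11510 to 25530 CPM in PC9. Not all were high, as ESRP1 (5 accessions) and MUC1 (20) had 0 CPM in every library. CLDN7 and OCLN (3 accessions each) had 0.84 to 8.26 CPM. Low values of genes with several accessions are again not read as low expression, for markers of any list. Mesenchymal markers, none of which had a TSS in a domain, summed to 536 to 785 CPM in PC9R and 281 to 446 CPM in PC9. Of the 7 tested their median log2 fold change was 0.61, and edgeR called 0 higher and 1 lower without the library term. With it, edgeR called 3 of these markers higher and 1 lower, where 12% and 10.2% of all genes were called. The part of mesenchymal markers in the values of the domain genes was not tested. Leukocyte markers summed to 13.8 to 17.9 CPM in PC9R and 8.76 to 8.79 CPM in PC9, nearly all of it CD68. CD3E and PTPRC (4 accessions) had 0 to 0.0941 CPM, and ITGAM (2 accessions) had 0 counts in every library. Fibroblast markers summed to 14.6 to 65.9 CPM in PC9R and 6.54 to 24.5 CPM in PC9, nearly all of it COL1A1, with DCN (6 accessions) at 0 counts in every library, and endothelial markers to 20.5 to 47.4 CPM in PC9R and 12.8 to 22.5 CPM in PC9.

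Other widely marked genes went each way. BHLHE41, a circadian repressor gene, had 184 and 183 CPM in PC9R and 410.5 and 485 CPM in PC9. SDC4 had 921 and 892 CPM in PC9R and 451 and 494 CPM in PC9, and ADM had 127.5 and 146 CPM in PC9R and 76.1 and 59.2 CPM in PC9. The libraries of the lines did not overlap for these 3 genes, which were called with the library term only, BHLHE41 lower and the other two higher. AKR1B1, the aldose reductase gene, had 3663 and 3979 CPM in PC9R and 3322 and 2904 CPM in PC9 and was not called in either fit, while its domain kept 10.9%. S100A14 had 674 and 644 CPM in PC9R and 696 and 756.5 CPM in PC9, and it too was not called. BCL2L1, in a well kept domain, had 65.9 and 54.4 CPM in PC9R and 32.1 and 31.3 CPM in PC9 and was called higher with the library term only, as was HOXB6 with 16.5 and 8.70 CPM in PC9R and 6.65 and 4.85 CPM in PC9.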

How the data were processed

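For each RNA library the authors deposited raw counts, 1 whole number per RefSeq transcript, and for each ChIP or DNase library a list of peak intervals with a score. Per the submitters' processing notes MACS2, TopHat, HTSeq and DESeq were used with hg19, no version or role being recorded. The scale of the score, the peak threshold, any control library and the counting mode are not stated, and scores were used only within their own list. All peaks lay inside GRCh37 chromosome lengths.

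Transcript counts were summed per gene by RefSeq name (41556 of 42811 accessions matched, and the unmatched ones, 0.668% to 0.824% of the counts of a library, were left out). Library totals were 16013058 to 32515891. Genes and TSS were those of GENCODE 44 lifted to GRCh37, with any basic coding transcript. A gene belongs to the widest domain that holds one of its TSS. RNA was tested with edgeR 4.0.16 (R 4.3.3), two-sided, by quasi-likelihood with TMM scaling after filterByExpr, over 12314 genes, and a call is a Benjamini-Hochberg adjusted p under 0.05. CPM are TMM-normalized and fold changes are log2 of PC9R over PC9. The SE is the size of the fold change over the square root of F. Levels are log2(CPM per kb + 1). Peaks overlap at 1 bp or more. The peak lists give no read depth, and binomial intervals cover counting error only. The fit was tested only on simulated counts with less spread between libraries than these data and no effect of library number. That does not show how the fit performs on these data.

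The domains, gene lists and tests were chosen with earlier results of these data known. Named genes are those of the 20 widest domains, of the 8 domains with most pieces, of the 8 least and 8 most kept TSS domains, up to 8 called per direction and fit by fold change (at least 10 CPM in the higher line, lines not overlapping), and up to 3 per list by mean CPM. Alternatives were other scalings, filters and tools (DESeq2 1.42.0, limma 3.58.1), library number as a term, leaving out each library, other domain numbers, joined or fewer PC9R peaks, and other TSS and length definitions. Not all genes and lists that these rules select are reported here.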

Additional observations from a re-analysis of the deposited data

How the results depend on the processing

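Leaving out each library in turn gave 82 to 249 called genes (39 with all 4), 3 to 9 called domain genes (2 with all 4) and a domain median log2 fold change of -0.34 to 0.12. The RNA libraries share only a number between the lines, so pairing is not established. With library number as a block, 2736 genes and 176 domain genes were called, the biological coefficient of variation was 0.18 instead of 0.50, and the domain median was -0.10.

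RLE scaling gave a domain median of -0.14. Upper quartile scaling called 0 genes and 0 domain genes, with a domain median of -0.0566, a smallest adjusted p of 0.0625 and 892 genes whose p before adjustment was under 0.05. Testing genes unfiltered gave 432, 14 and -0.14, and with DESeq2 376, 10 and -0.14. The stricter filter called 103 genes with a domain median of -0.0920, and limma-voom called 75. Genes with 1 accession gave 1 called domain gene and a median of -0.16. Domain medians were -0.15 for the 500 and -0.0945 for the 2000 widest peaks.

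Of the 500 widest peaks 91.4% held 2 or more PC9R peaks, with a median kept share of 37.5% and a TSS in 77.4%. The 2000 widest gave 83.8%, a median of 2 pieces and 45.5% kept. Joining PC9R peaks over 1000 bp gave 18.9%, 1 piece and 55.7%. Taking as many PC9R peaks by score as in PC9 gave 1.2% of domains with none, 83.7% with 2 or more, a median of 2 and 39.5% kept, and the PC9R peaks above the median score gave 3.1%, 71.7%, 2 and 35.3%. Joining PC9 peaks gave 0%, 96%, 4 and 26.5%, and joining both lists, added after seeing the data, gave 0%, 66.7%, 2 and 35.0%. A TSS within 1 kb was found for 85.6% of domains and an Ensembl canonical TSS, added after seeing the data, in 63.8%. The median level in PC9 was 2.68 over all genes of the count table and 4.73 with union exon length. The cause of these shifts was not tested.

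Of 902 values of named genes under the alternatives, 834 had the sign of the reported fold change. NR2F1 and TPM2, the domain genes called in the main fit, kept their sign in every alternative. Of 35 named genes called with the block, 1 (ID1) changed sign and 12 moved by over 1.5 times when a library was left out of the fit without it. Beside ID1, CEBPA and TGFB1 these 12 were HMGA2 (-7.12 to -2.42), HES7 (-3.91 to -1.19), MLLT11 (-1.35 to -0.23), DUSP6 (-1.24 to -0.57), ABTB3 (0.57 to 2.20), TMEM164 (0.41 to 2.19), NECTIN4 (0.71 to 2.07), EFNA1 (0.91 to 1.93) and HOXB6 (0.59 to 1.5). In all, leaving out a library turned the sign of the log2 fold change of 38 named genes. The lowest and highest values ran for PRRT1 from -2.09 to 0.47, GATA2 from -2.04 to 1.5, KRT8 from -1.95 to 1.38, KIF11 from -1.71 to 0.60, CDKN2A from -1.47 to 1.34, FOS from -1.40 to 0.19, ALDH3A2 from -1.20 to 0.069 and CDC42BPG from -1.18 to 0.92. They ran for AMOTL2 from -1.14 to 1.72, BCL6 from -1.08 to 0.24, ARID1A from -0.89 to 0.0395, TFAP2A from -0.87 to 0.0303, SMAD3 from -0.82 to 0.97, PBLD from -0.78 to 0.25, KRT7 from -0.78 to 0.45 and TGFA from -0.73 to 0.45. Those of other genes ran for PLEC from -0.67 to 1.5, NCBP1 from -0.67 to 0.96, DUSP4 from -0.63 to 1.24, BATF from -0.63 to 0.51, LAMA5 from -0.60 to 1.67, PPT2 from -0.58 to 2.19, ERBB3 from -0.58 to 0.63 and AJUBA from -0.56 to 0.77. Ranges also ran for NR2F2 from -0.51 to 0.37, ID1 from -0.49 to 3.30, PCDH7 from -0.47 to 0.0147, RARG from -0.45 to 1.63, CBX3 from -0.34 to 0.34, CDC42SE1 from -0.34 to 0.18, TGIF1 from -0.22 to 1.56 and S100A16 from -0.17 to 0.25. The last were SLC25A22 from -0.13 to 1.30, JAG1 from -0.13 to 0.99, ITGB1 from -0.10 to 0.24, CHD2 from -0.0751 to 0.37, KDM5B from -0.0404 to 0.63 and TEAD1 from -0.0282 to 0.71. AJUBA also turned to 0.0802 with the block, 0.0181 with upper quartile scaling and 0.0819 with limma-voom, CBX3 to -0.000435 with limma-voom, SMAD3 to -0.00616 with no filter, and BATF to 0.00685 and CDC42SE1 to 0.00805 with upper quartile scaling. The cause was not tested. The limits are 1 peak list per line and assay, 2 RNA libraries per line, an unknown ChIP depth and narrower peaks throughout the PC9R list.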
